A study of Mus musculus with 21 samples.

Results

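The 10 genes described here encode transcription factors of the AP-1 group and a few early-response partners: the Fos members Fos, Fosb and Fosl2, the Jun members Jun, Junb and Jund, and Atf3, Maff, Egr1 and Ier2. They were taken by gene symbol from a deposited table of 18762 genes. All 10 were found, each on a single row, and all 10 were among the 12433 genes with at least 1 FPKM (fragments scaled by transcript length and by the mapped total of the library) in at least 3 libraries. The RNA came from the heart apex of ICR mice at postnatal day 7. All groups, controls included, had the tip of the ventricle removed at 1 day of age. The drugs were then given under the skin over 7 days, and the labels give no doses. The drug groups were isoproterenol (an agonist of β-adrenergic receptors), amiodarone (a blocker of potassium and other channels), metoprolol and propranolol (β-blockers), lidocaine (a sodium channel blocker) and ivabradine (a blocker of the pacemaker current). The control libraries are titled NS, and the labels name the resection as their treatment. The protocol text shared by all libraries lists the 6 drugs and names no vehicle, so what the controls were injected with, if anything, is not given. Each of the 7 groups had 3 libraries. Whether a library stands for an animal of its own is not in the labels, and the p-values below measure the spread between libraries.

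AP-1 is a family of paired transcription factors that bind DNA through a basic region and pair through a leucine zipper. Fos proteins bind mainly as partners of Jun proteins, whereas Jun proteins also pair with each other and with ATF proteins. Small Maf proteins such as Maff lack an activation domain and pair with CNC factors, among others. Many of these genes are immediate early genes, transcribed within minutes of a stimulus through serum response factor, CREB and MAP kinases without new protein synthesis, and in heart muscle they are known to respond to catecholamines, stretch and injury.

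The promoters are shown because the cAMP response element, the DNA site of CREB and ATF proteins, is spelled TGACGTCA, with TGACG as its shorter form, and members of the group differ in whether they carry it close to the start of transcription. Each window is the 250 bases before a RefSeq transcription start (GRCm38.p6), and 8 of the 10 members had an entry. The capitals mark the shorter form in Fos and Fosb and, read on the other strand, in Atf3. They also mark the TATA box of Fos, the full element TGACGTCA in Maff and the Jun-type AP-1 site TGACATCA in Jun. The windows are chr12:85473640-85473889 on the + strand for Fos, chr7:19310046-19310295 on the - strand for Fosb, chr1:191183334-191183583 on the - strand for Atf3, chr15:79347270-79347519 on the + strand for the second of 3 start sites of Maff, and chr4:95052223-95052472 on the - strand for Jun.
Fos: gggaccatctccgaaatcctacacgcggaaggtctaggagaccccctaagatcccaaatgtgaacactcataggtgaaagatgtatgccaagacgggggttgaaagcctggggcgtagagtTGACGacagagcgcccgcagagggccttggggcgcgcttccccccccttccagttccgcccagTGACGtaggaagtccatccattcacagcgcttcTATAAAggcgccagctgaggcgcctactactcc
Fosb: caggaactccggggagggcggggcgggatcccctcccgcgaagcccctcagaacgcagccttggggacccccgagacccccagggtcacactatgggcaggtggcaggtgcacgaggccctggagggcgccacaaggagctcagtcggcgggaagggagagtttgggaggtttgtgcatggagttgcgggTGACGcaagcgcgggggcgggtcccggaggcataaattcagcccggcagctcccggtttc
Atf3: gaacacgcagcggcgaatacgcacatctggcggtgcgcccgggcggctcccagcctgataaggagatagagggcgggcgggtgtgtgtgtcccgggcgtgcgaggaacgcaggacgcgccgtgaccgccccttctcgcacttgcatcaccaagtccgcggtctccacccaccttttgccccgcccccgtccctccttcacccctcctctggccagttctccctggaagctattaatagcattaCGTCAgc
Maff: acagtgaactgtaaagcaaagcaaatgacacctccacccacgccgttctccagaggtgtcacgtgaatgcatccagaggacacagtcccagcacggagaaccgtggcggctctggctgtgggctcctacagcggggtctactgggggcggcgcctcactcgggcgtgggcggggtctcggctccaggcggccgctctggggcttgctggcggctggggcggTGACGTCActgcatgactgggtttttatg
Jun: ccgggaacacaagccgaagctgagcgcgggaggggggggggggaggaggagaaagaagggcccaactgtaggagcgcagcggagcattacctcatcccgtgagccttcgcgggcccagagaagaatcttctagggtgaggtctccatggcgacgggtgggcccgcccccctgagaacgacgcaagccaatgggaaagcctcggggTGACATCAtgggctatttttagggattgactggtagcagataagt

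Counting back from the start of transcription, the Fos window held TGACG at -129 to -125 and at -66 to -62, and its TATA box at -33 to -28. Fosb held TGACG at -60 to -56, Atf3 at -7 to -3 on the other strand, and the second Maff start the whole TGACGTCA at -29 to -22. That Maff window also held GCGTGGGCG, the letters of the EGR site, at -88 to -80, overlapping a GC box. Junb (not printed) held TGACG at -106 to -102. The Jun window held TGACATCA at -45 to -38, and so did the third Maff start, at the same distance. Among 32851 RefSeq start sites searched in the same way on both strands, 17.8% held TGACG, 1.55% TGACGTCA, 2.93% TGACATCA, 12.4% TATAAA and 0.536% GCGTGGGCG. The classical AP-1 site TGACTCA was present in 4.46% of the windows and the CArG box of serum response factor in 1.47%. Neither was in any of the member windows. Sequence farther upstream than these windows was not searched, for Fos or any other member. The absence of a CArG box therefore holds for the windows alone. Egr1 and Ier2 had no window to search. The Fosl2, Jund and first Maff windows held none of the sites named in this paragraph other than a GC box in Fosl2.

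The deposited FPKM carried no read counts, so absolute depth is unknown. The values of a library summed to 496304 to 552905 FPKM with 16348 to 16746 genes above 0, and relative depth, read from the steps in 71 low genes, ran from 0.968 to 1.05. That reading kept only values near a gene's lowest nonzero value, from 12 to 31 genes per library. This choice narrows its range, so it cannot show that depth was even. Between libraries of the same group, r over all tested genes was 0.988 to 0.996. The summed level of 7 cardiomyocyte markers was 35604 to 41437 FPKM in every library. Some libraries held RNA of neighbouring tissues. The 5 lung markers summed to 255 FPKM in amiodarone library 2 and 10.5 FPKM in lidocaine library 1 (at most 0.47 FPKM elsewhere), 3 atrial markers to 290 FPKM in isoproterenol library 3, 5 liver markers to 29.5 FPKM in propranolol library 1, and 6 fast skeletal muscle markers to 164 FPKM in control library 3, 80.3 FPKM in amiodarone library 3 and 42.4 FPKM in control library 2 (4.47 to 33.8 FPKM elsewhere). The fit without amiodarone 2, isoproterenol 3, propranolol 1 and control 3, the library highest in each marker list, is called below the fit without the 4 libraries. Amiodarone library 3 was kept in it, and leaving that library out alone ended the amiodarone call of Ier2 and of no other member. In bulk tissue, fewer cells of a type and less RNA per cell cannot be told apart.

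In limma's F test on log2(FPKM + 1), all 10 passed a Benjamini-Hochberg adjusted p of 0.05, against 39.9% of all genes tested, with Maff at 2.4e-06, Atf3 at 0.00016, Fosl2 at 0.00044 Ier2 at 0.029 and Junb closest to the threshold at 0.044. The Junb result was lost in 19 of 30 alternatives, among them median-of-ratios rescaling (0.06), no filter (0.087), robust moderation (0.07) and the fit without the 4 libraries (0.34), and that of Ier2 in 7, with 0.15 without the 4 libraries. Against the controls, members that passed were higher under every anti-arrhythmic drug and none was lower. There were 7 of 10 under lidocaine (10.6% of all genes were called higher and 26.6% lower), 6 under amiodarone (8.47% higher, 20.6% lower), 5 under metoprolol (9.48% higher, 22% lower), 3 under propranolol (6.98% higher, 19.8% lower) and 3 under ivabradine (7.91% higher, 19.1% lower). Under isoproterenol limma called 0 of 10 (8.38% higher, 25.8% lower), and 3 (Jun, Junb and Egr1) had an unadjusted p under 0.05. The share of all genes with an unadjusted p under 0.05 was not computed, here or for the comparisons below. The median log2 difference of the 10 genes was 0.72 under lidocaine, 0.59 under metoprolol, 0.56 under amiodarone, 0.39 under ivabradine, 0.24 under propranolol and -0.02 under isoproterenol. The median over all tested genes lay between -0.10 and -0.08 in the 5 anti-arrhythmic comparisons and at -0.09 under isoproterenol.

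**Figure D1:**
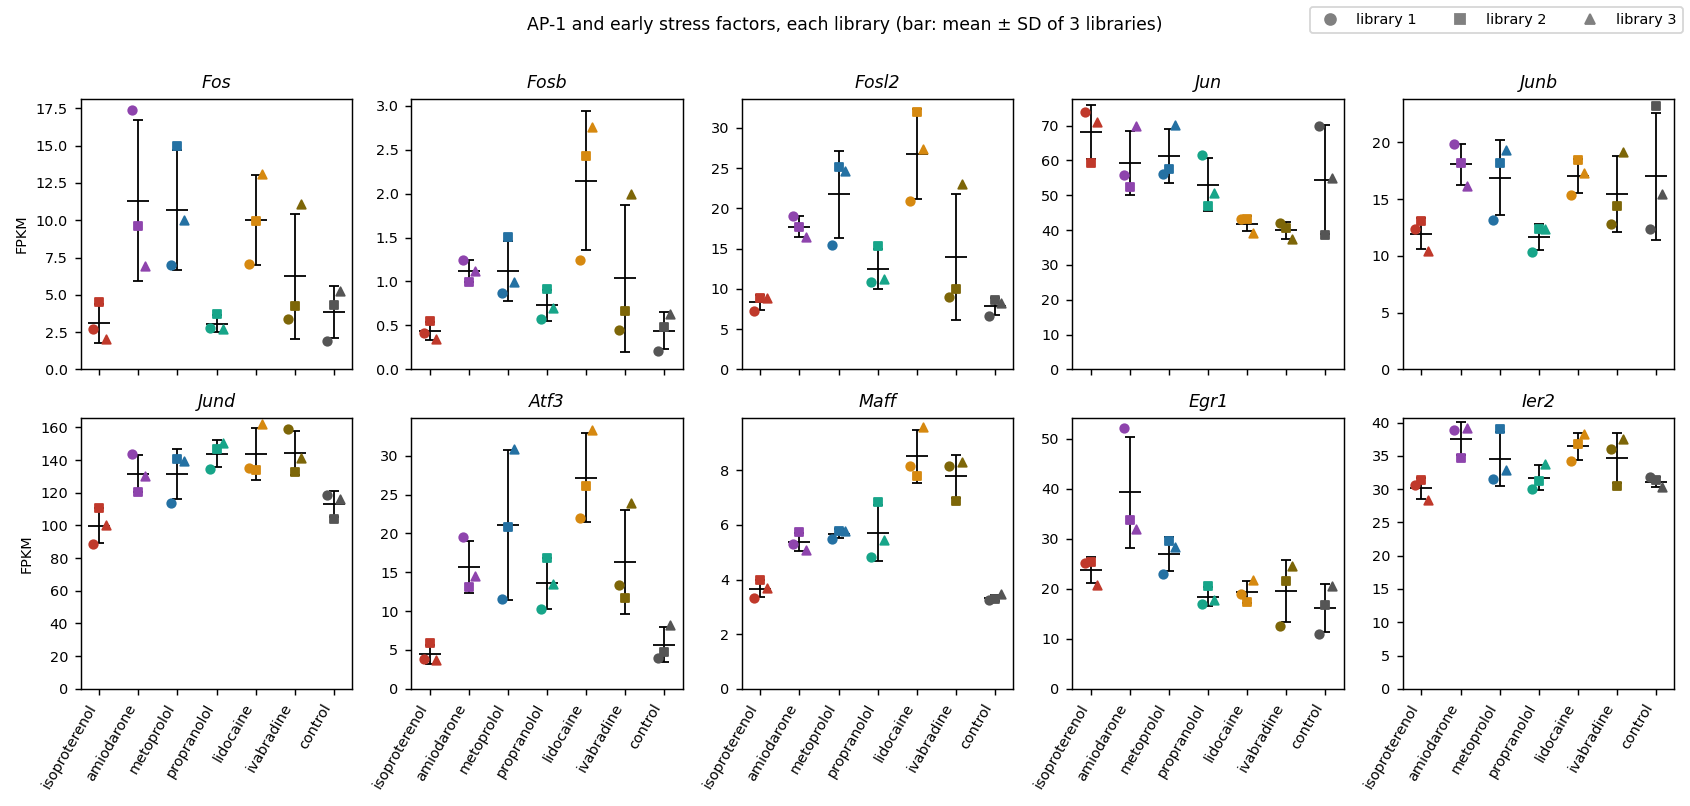
FPKM of the 10 genes in each of 21 libraries, by group; each symbol is 1 library and the bars are the mean ± SD of 3 libraries. Atf3 and Maff lie above the controls in all 15 anti-arrhythmic libraries, while the isoproterenol libraries lie among or close to the controls.

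**Figure D2:**
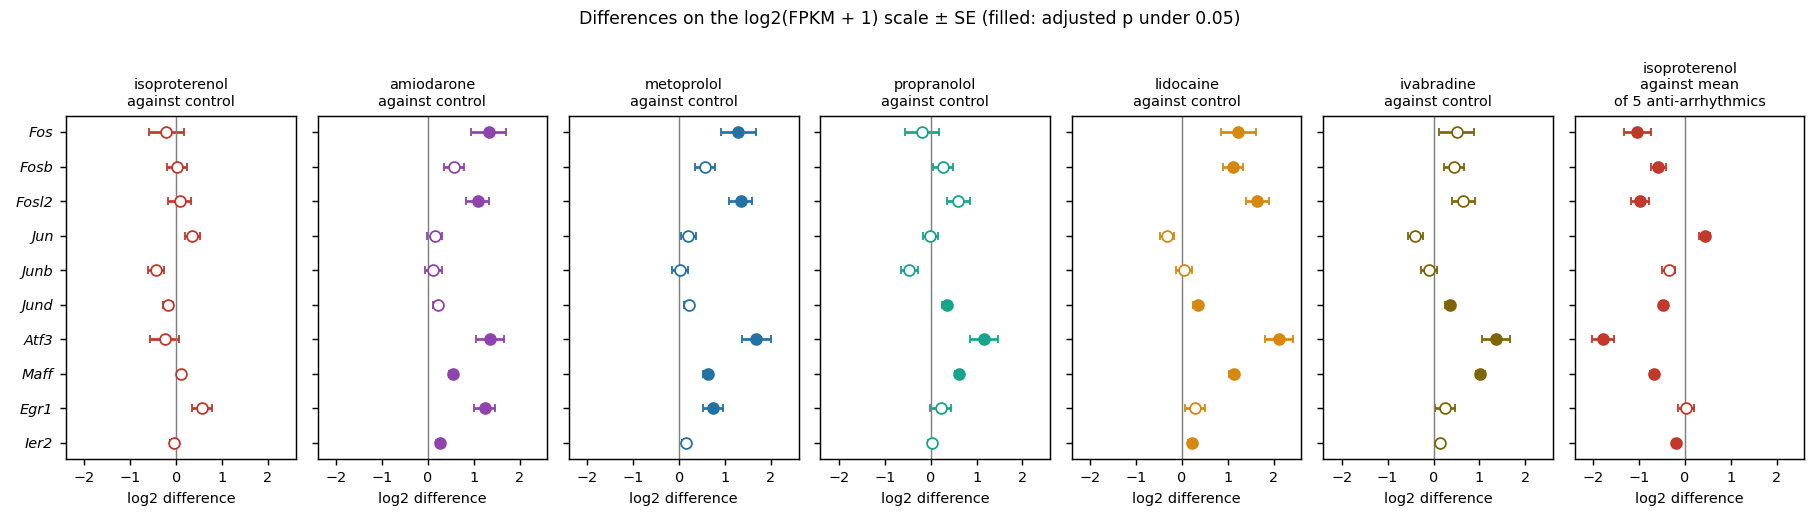
Log2 differences ± SE of the 10 genes on the log2(FPKM + 1) scale, 1 panel per comparison; filled points passed an adjusted p of 0.05. Filled points against control are 7 under lidocaine, 6 under amiodarone, 5 under metoprolol, 3 under propranolol, 3 under ivabradine and 0 under isoproterenol.

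Among the Fos members, Fosl2 (Entrez gene 14284), which encodes the Fos-related antigen Fra-2, was the most abundant in FPKM in every group. It stood at 7.21, 8.87 and 8.90 FPKM in the isoproterenol libraries, 19.1, 17.7 and 16.4 FPKM under amiodarone and 15.5, 25.1 and 24.6 FPKM under metoprolol. The propranolol libraries had 10.9, 15.3 and 11.2 FPKM, the lidocaine libraries 20.9, 31.9 and 27.4 FPKM and the ivabradine libraries 8.96, 9.93 and 23.0 FPKM, against 6.67, 8.63 and 8.20 FPKM in the controls. Every anti-arrhythmic library was above all 3 controls, and the isoproterenol libraries overlapped them. Fosl2 rose under lidocaine by 1.64 ± 0.25 log2 (SE; adjusted p = 0.00015), under metoprolol by 1.34 ± 0.25 (0.0011) and under amiodarone by 1.09 ± 0.25 (0.0048). The difference was 0.65 ± 0.25 under ivabradine (adjusted p = 0.061) and 0.60 ± 0.25 under propranolol (0.080), neither past the threshold. The ivabradine difference rested on library 3: without it the difference was 0.25 log2 (0.39), while the threshold was passed without library 1 (0.017), without library 2 (0.046), after rescaling (0.043) and with the title number as a block (0.035). The propranolol difference passed with that block (0.048) and with its 2 groups fitted alone (0.021). Without the 4 libraries the amiodarone call was lost (0.052).

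Fos (14281), the founding member and an immediate early gene of short-lived RNA, varied widely between libraries of a group. It was at 2.70, 4.54 and 2.05 FPKM under isoproterenol, 17.4, 9.62 and 6.95 FPKM under amiodarone and 7.01, 15.0 and 10.02 FPKM under metoprolol. Propranolol libraries had 2.78, 3.71 and 2.70 FPKM, lidocaine libraries 7.07, 9.95 and 13.1 FPKM and ivabradine libraries 3.36, 4.28 and 11.1 FPKM, against 1.91, 4.33 and 5.29 FPKM in the controls. All libraries of the amiodarone, metoprolol and lidocaine groups lay above the controls. The isoproterenol, propranolol and ivabradine groups overlapped them. Fos rose by 1.33 ± 0.38 log2 under amiodarone (adjusted p = 0.015), 1.28 ± 0.38 under metoprolol (0.017) and 1.22 ± 0.38 under lidocaine (0.018). The differences were 0.50 ± 0.38 under ivabradine (0.34), -0.19 ± 0.38 under propranolol (0.73) and -0.21 ± 0.38 under isoproterenol (0.69). Under ivabradine the difference was 0.060 without library 3 and 0.17 without control library 1. Each of the 3 calls was lost without control library 1 (adjusted p = 0.068 for amiodarone, 0.076 for metoprolol, 0.086 for lidocaine) and without the group's own highest library (0.083 without amiodarone 1, 0.071 without metoprolol 2, 0.071 without lidocaine 3), and the amiodarone call also without the 4 libraries (0.052).

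Fosb (14282), a close paralog of Fos, was the scarcest gene of the group, between 0.21 and 2.76 FPKM over all libraries, where the log2(FPKM + 1) scale understates change. Lidocaine libraries held 1.25, 2.43 and 2.76 FPKM, against 0.21, 0.48 and 0.63 FPKM in the controls, with no overlap. Fosb rose by 1.10 ± 0.22 log2 under lidocaine (adjusted p = 0.0010). It averaged 1.12 ± 0.130 FPKM under amiodarone and 1.12 ± 0.340 FPKM under metoprolol, against 0.440 ± 0.213 FPKM in the controls (SD, n = 3 each). Those differences of 0.57 ± 0.22 and 0.56 ± 0.22 log2 both missed the threshold at 0.057, and both passed it with a pseudocount of 0.1 in place of 1 (0.029 for amiodarone and 0.03 for metoprolol) and with the title number as a block (0.038 and 0.037). Under ivabradine, where library 3 had 1.99 FPKM and the other libraries 0.45 and 0.67 FPKM, the difference was 0.44 ± 0.22 (adjusted p = 0.14). It was 0.64 without library 1 (0.038) and 0.12 without library 3 (0.68). Propranolol libraries ran from 0.57 to 0.92 FPKM and isoproterenol libraries from 0.35 to 0.55 FPKM, with differences of 0.27 ± 0.22 and 0.01 ± 0.22 (adjusted p = 0.36 and 0.98).

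The summed level of Fos, Fosb and Fosl2 was 38.9 ± 8.44 FPKM under lidocaine, 33.5 ± 9.31 under metoprolol, 30.2 ± 6.79 under amiodarone, 21.2 ± 12.9 under ivabradine, 16.3 ± 3.20 under propranolol and 11.9 ± 1.88 under isoproterenol, against 12.1 ± 2.90 FPKM in the controls (SD, n = 3 each). As a percent of the summed Jun, Junb and Jund level this was 19.2% under lidocaine, 15.8% under metoprolol, 14.4% under amiodarone, 10.7% under ivabradine, 7.81% under propranolol and 6.59% under isoproterenol, against 6.68% in the controls. Fosl2 made up most of the sum in every group, from a mean of 60.1% under amiodarone to 76.7% under propranolol, against 66.1% in the controls.

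Jun members behaved differently from Fos members and from one another. Jund (16478), the Jun gene known for steady expression and the most abundant of them in FPKM, ran from 88.8 to 162 FPKM over all libraries. Its values were 135, 147 and 150 FPKM under propranolol, 135, 134 and 162 FPKM under lidocaine and 159, 133 and 141 FPKM under ivabradine, against 119, 104 and 116 FPKM in the controls. All 9 of these drug libraries lay above the controls. Jund rose by 0.35 ± 0.10 log2 under propranolol (adjusted p = 0.018), 0.34 ± 0.10 under lidocaine (0.014) and 0.35 ± 0.10 under ivabradine (0.017). Each of these calls needed control library 2, without which the adjusted p was 0.084, 0.071 and 0.078, and each was also lost without 1 of its own libraries (0.057 and 0.06 without propranolol 2 and 3, 0.079 without lidocaine 3, 0.063 without ivabradine 1). The propranolol call was lost without the 4 libraries too (0.054). Amiodarone libraries averaged 132 ± 11.4 FPKM and metoprolol libraries 131 ± 15.3 FPKM, against 113 ± 7.92 FPKM in the controls, with log2 differences of 0.22 ± 0.10 and 0.21 ± 0.10 (adjusted p = 0.11 and 0.12; metoprolol 0.045 without its library 1, and both 0.050 after rescaling). Isoproterenol libraries had 88.8, 110 and 100 FPKM, a difference of -0.18 ± 0.10 (adjusted p = 0.17).

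Jun (16476), the founding Jun gene, was alone in standing highest under isoproterenol. Its isoproterenol libraries had 73.9, 59.3 and 71.0 FPKM. Amiodarone libraries averaged 59.3 ± 9.23, metoprolol libraries 61.4 ± 7.76 and propranolol libraries 53.0 ± 7.57 FPKM, lidocaine libraries had 43.3, 43.1 and 39.3 FPKM and ivabradine libraries 42.1, 40.6 and 37.3 FPKM. The controls had 69.95, 38.7 and 54.8 FPKM, a spread that covered the values of most drug libraries. No comparison of Jun with control passed the threshold: the differences were 0.35 ± 0.16 log2 under isoproterenol (adjusted p = 0.095), 0.15 ± 0.16 under amiodarone (0.49), 0.20 ± 0.16 under metoprolol (0.34), -0.01 ± 0.16 under propranolol (0.97), -0.33 ± 0.16 under lidocaine (0.10) and -0.40 ± 0.16 under ivabradine (0.069). Control library 2, which had the lowest Jun of the controls, decided the lower values: without it the adjusted p was 0.0082 under lidocaine and 0.0055 under ivabradine. The ivabradine value also passed, as lower, with the title number as a block (0.045). Control library 1, the highest, decided the isoproterenol value (0.0093 without it), which median-of-ratios rescaling also brought past the threshold (0.038).

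Junb (16477), which can act against Jun in some settings, passed no comparison with control. Its groups averaged 18.1 ± 1.83 FPKM under amiodarone, 17.04 ± 1.53 under lidocaine, 16.9 ± 3.28 under metoprolol, 15.5 ± 3.31 under ivabradine, 11.95 ± 1.36 under isoproterenol and 11.7 ± 1.14 under propranolol, against 17.01 ± 5.58 FPKM in the controls. Control library 2 had 23.2 FPKM, the highest Junb of all 21 libraries, and control library 1 had 12.4 FPKM. Library 2 also held the most neutrophil marker RNA, 131 FPKM over 8 genes against 19.9 and 18.4 FPKM in control libraries 1 and 3, and the part of this in its Jun and Junb levels was not tested. The differences of -0.44 ± 0.18 log2 under isoproterenol (adjusted p = 0.065) and -0.46 ± 0.18 under propranolol (0.061) passed the threshold without control library 1 (0.012 in both). Both also passed, as lower, with the title number as a block (0.043 and 0.042). Jund supplied 72.2% of the summed Jun-member level under ivabradine, 70.8% under lidocaine, 69.0% under propranolol, 63.0% under amiodarone, 62.7% under metoprolol and 55.4% under isoproterenol, against 61.4% in the controls.

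Atf3 (11910), a stress-induced ATF factor that often represses its targets, had the largest difference of the 10 genes under each anti-arrhythmic drug on the log2(FPKM + 1) scale. Under amiodarone the lead over Fos was small beside their errors, and with a pseudocount of 0.1 Fos came first there (1.55 log2, against 1.51 for Atf3). It stood at 3.78, 5.87 and 3.75 FPKM under isoproterenol, 19.5, 13.1 and 14.5 FPKM under amiodarone and 11.6, 20.8 and 30.9 FPKM under metoprolol. Propranolol libraries had 10.3, 16.8 and 13.5 FPKM, lidocaine libraries 22.04, 26.0 and 33.3 FPKM and ivabradine libraries 13.3, 11.6 and 23.9 FPKM, against 4.00, 4.73 and 8.21 FPKM in the controls. All 15 anti-arrhythmic libraries exceeded every control library, and the isoproterenol libraries overlapped the controls. Atf3 rose by 2.11 ± 0.31 log2 under lidocaine (adjusted p = 1e-04), 1.68 ± 0.31 under metoprolol (0.0010), 1.37 ± 0.31 under ivabradine (0.0039), 1.36 ± 0.31 under amiodarone (0.0045) and 1.16 ± 0.31 under propranolol (0.012). Under isoproterenol the difference was -0.25 ± 0.31 (0.55). The propranolol call was lost without propranolol library 2 (0.055), and the other 4 calls held in every alternative run.

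Maff (17133), a small Maf, had the smallest p of the 10 genes in the F test of 7 groups. Isoproterenol libraries had 3.34, 3.99 and 3.69 FPKM, amiodarone libraries 5.30, 5.73 and 5.07 FPKM and metoprolol libraries 5.49, 5.77 and 5.77 FPKM. Propranolol libraries had 4.82, 6.83 and 5.46 FPKM, lidocaine libraries 8.16, 7.78 and 9.60 FPKM and ivabradine libraries 8.16, 6.89 and 8.32 FPKM, against 3.27, 3.28 and 3.47 FPKM in the controls. The values fell into steps that did not overlap: lidocaine and ivabradine above the other 3 anti-arrhythmics, and these above isoproterenol and the controls. Maff rose by 1.13 ± 0.10 log2 under lidocaine (adjusted p = 7.1e-07), 1.01 ± 0.10 under ivabradine (2.7e-06), 0.62 ± 0.10 under metoprolol (0.00032), 0.62 ± 0.10 under propranolol (0.00034) and 0.55 ± 0.10 under amiodarone (0.00086). Its isoproterenol difference was 0.10 ± 0.10 (0.41). The 5 calls held in every alternative run.

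Egr1 (13653), a zinc finger factor induced through serum response factor, was called higher than in controls under amiodarone and metoprolol. Isoproterenol libraries had 25.1, 25.4 and 20.7 FPKM, amiodarone libraries 52.1, 33.7 and 32.0 FPKM and metoprolol libraries 23.1, 29.6 and 28.4 FPKM, against 11.1, 16.8 and 20.6 FPKM in the controls. All 9 of these libraries were above the controls, if by a small margin for isoproterenol library 3. The propranolol, lidocaine and ivabradine libraries ran from 12.6 to 24.6 FPKM and overlapped the controls. Egr1 rose by 1.24 ± 0.22 log2 under amiodarone (adjusted p = 0.0010) and 0.74 ± 0.22 under metoprolol (0.018), and the isoproterenol difference of 0.56 ± 0.22 missed the threshold at 0.056. It was 0.28 ± 0.22 under lidocaine (0.32), 0.25 ± 0.22 under ivabradine (0.41) and 0.22 ± 0.22 under propranolol (0.48). The amiodarone call held in every alternative run. The metoprolol call was lost without metoprolol library 2 (0.055), metoprolol library 3 (0.054) or control library 1 (0.09), and isoproterenol passed without control library 3 (0.025), without the 4 libraries (0.047) and after rescaling (0.028).

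Ier2 (15936), an immediate early gene for a nuclear protein, moved least, between 28.4 and 39.1 FPKM in all. It averaged 37.6 ± 2.50 FPKM under amiodarone and 36.4 ± 2.07 FPKM under lidocaine, against 31.1 ± 0.742 FPKM in the controls. The rises of 0.26 ± 0.08 log2 under amiodarone (adjusted p = 0.024) and 0.22 ± 0.08 under lidocaine (0.043) depended on the libraries used. Leaving out amiodarone library 1 or 3 or control library 2 or 3 gave 0.078, 0.071, 0.058 and 0.07 for amiodarone. Leaving out lidocaine library 2 or 3 or control library 1, 2 or 3 gave 0.1, 0.13, 0.06, 0.085 and 0.11 for lidocaine. Without the 4 libraries the adjusted p was 0.072 for amiodarone and 0.12 for lidocaine, and the lidocaine call was also lost with no filter (0.064), no variance trend (0.051) and the title number as a block (0.055). The other differences were 0.15 ± 0.08 under ivabradine, 0.14 ± 0.08 under metoprolol, 0.02 ± 0.08 under propranolol and -0.05 ± 0.08 under isoproterenol, with adjusted p of 0.19, 0.20, 0.85 and 0.69.

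In the order of group means, most neighbours overlapped in their library values, and the order among them is not fixed. Atf3 ran from lidocaine (27.1 ± 5.73 FPKM) through metoprolol (21.1 ± 9.67), ivabradine (16.3 ± 6.66), amiodarone (15.7 ± 3.35) and propranolol (13.6 ± 3.29) to isoproterenol (4.47 ± 1.22), with controls at 5.65 ± 2.25 FPKM. Its single gap lay between propranolol and the controls. Fosl2 and Fosb had theirs between propranolol and isoproterenol, Egr1 between amiodarone and metoprolol, and Jun between propranolol and lidocaine. Maff had a gap between ivabradine and propranolol and another between amiodarone and isoproterenol. Fos, Junb, Jund and Ier2 had no gap between neighbouring groups.

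Isoproterenol, which drives the heart through β-adrenergic receptors, was set against the mean of the 5 anti-arrhythmic drugs. The control means do not enter this comparison, but the control libraries share in its estimate of the spread. Of the 10 genes, 7 were called lower under isoproterenol than under these drugs (13.3% of all genes lower) and 1 higher (9.51% higher). Against control limma called 0 of 10 under isoproterenol, so lower and higher here are relative to the 5 drugs. Atf3 was lower by 1.79 ± 0.24 log2 (adjusted p = 6.5e-05), with a mean of 4.47 FPKM against 18.8 FPKM over the 15 anti-arrhythmic libraries. Fosl2 was lower by 0.98 ± 0.19 (0.0015), Maff by 0.68 ± 0.07 (1.4e-05) and Jund by 0.47 ± 0.08 (0.00037). These 4 calls held in every alternative run. Fos was lower by 1.04 ± 0.29 (0.015), Fosb by 0.58 ± 0.17 (0.019) and Ier2 by 0.20 ± 0.06 (0.027), while Jun was higher by 0.43 ± 0.12 (0.017). Those 4 calls were lost without isoproterenol library 1 (0.069, 0.069, 0.066 and 0.10) or library 3 (0.12, 0.094, 0.17 and 0.091), and without the 4 libraries (0.14, 0.12, 0.14 and 0.10), in the order Fos, Fosb, Ier2 and Jun. The 4 Y-linked genes summed to 0.86 to 0.98 FPKM in the isoproterenol libraries and to 35.8 to 43.2 FPKM in all amiodarone and propranolol libraries, and varied within the other groups. With their level as a covariate the Fos, Fosb and Ier2 calls were lost (0.056, 0.087 and 0.16). Junb differed by -0.36 ± 0.14 (0.068) and Egr1 by 0.02 ± 0.17 (0.96).

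Among the 5 anti-arrhythmic drugs the groups differed less. The F test over these groups called Maff alone (adjusted p = 0.0056), where 1.06% of all genes were called, and Egr1 came next at an adjusted p of 0.059. By unadjusted p, 8 of the 10 genes were under 0.05. The 1.06% is no measure for that count, because the share of all genes at the unadjusted threshold was not computed. Ivabradine library 3, in which Fos, Fosb, Fosl2 and Atf3 were each higher than in the other ivabradine libraries, weighed on this test: without it 5 genes (Fos, Fosb, Fosl2, Egr1 and Maff) were called. When each drug was set against the mean of the other 4, lidocaine was higher in Maff by 0.43 ± 0.08 log2 (adjusted p = 0.031; 0.113% of all genes were called higher) and amiodarone in Egr1 by 0.86 ± 0.17 (0.041; 0.177% higher). Both calls were lost in many alternatives, with adjusted p up to 0.25 for Maff and 0.38 for Egr1. Limma called 0 of 10 for propranolol, ivabradine and metoprolol, where 0.45%, 0.298% and 0% of all genes were called in either direction. Those with an unadjusted p under 0.05 were 7, 3 and 2 of 10, again with no share of all genes at that threshold. Fos under propranolol differed from the other 4 drugs by -1.27 ± 0.30 (adjusted p = 0.083).

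Metoprolol, which prefers the β1 receptor, and propranolol, which blocks β1 and β2 receptors alike, differed most in Fos. The metoprolol libraries had 7.01, 15.0 and 10.02 FPKM, against 2.78, 3.71 and 2.70 FPKM in the propranolol libraries, without overlap. The difference was 1.47 log2 (95% interval 0.68 to 2.27). Limma called 0 of the 10 between the β-blockers, where 6 of 12433 genes passed in all (0.0483%). The adjusted p was 0.20 for Fos, and 4 of the 10 had an unadjusted p under 0.05, with no share of all genes at that threshold. The other 3 were Fosl2 (0.74, interval 0.21 to 1.26), Egr1 (0.52, 0.06 to 0.99) and Junb (0.48, 0.11 to 0.86), all higher under metoprolol with no overlap of libraries. The lack of overlap comes from the same values as the p and adds no support to it. The share of all genes without overlap was not computed. Maff differed by 0.0050 (-0.20 to 0.21) and Jund by -0.14 (-0.35 to 0.08). Because the labels give no doses, it cannot be said whether these were matched.

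Within groups, Fos, Fosb and Egr1 varied together from library to library. These 3 genes had their highest value in the same library in 7 of 7 groups, namely isoproterenol 2, amiodarone 1, metoprolol 2, propranolol 2, lidocaine 3, ivabradine 3 and control 3, and Atf3 in 6 of these. Over the 21 libraries, the deviations from the group means correlated at r = 0.85 between Fos and Egr1 and between Fos and Fosb, 0.87 between Fosb and Fosl2 and 0.76 between Fos and Atf3. Jun tended the other way, with r of its deviations at -0.63 to Junb, -0.52 to Fos, -0.43 to Egr1, -0.42 to Maff, -0.37 to Fosb and -0.31 to Fosl2. Its r was near 0 to Jund (0.08) and weak to Ier2 (-0.10) and Atf3 (-0.15). Jun shared its highest library with Fos in 0 of 7 groups. Ier2 was less closely tied to Fos and Egr1, with r of 0.47 to Fos and 0.13 to Egr1. It shared its highest library with Fos in 4 of 7 groups, as did Junb, Jund and Fosl2, the last with an r of 0.78 to Fos. Maff did so in 5 groups. For Maff and Egr1 the deviations correlated at 0.21. These correlations are descriptive, over libraries that share the authors' processing and a scaling to the library total.

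**Figure D3:**
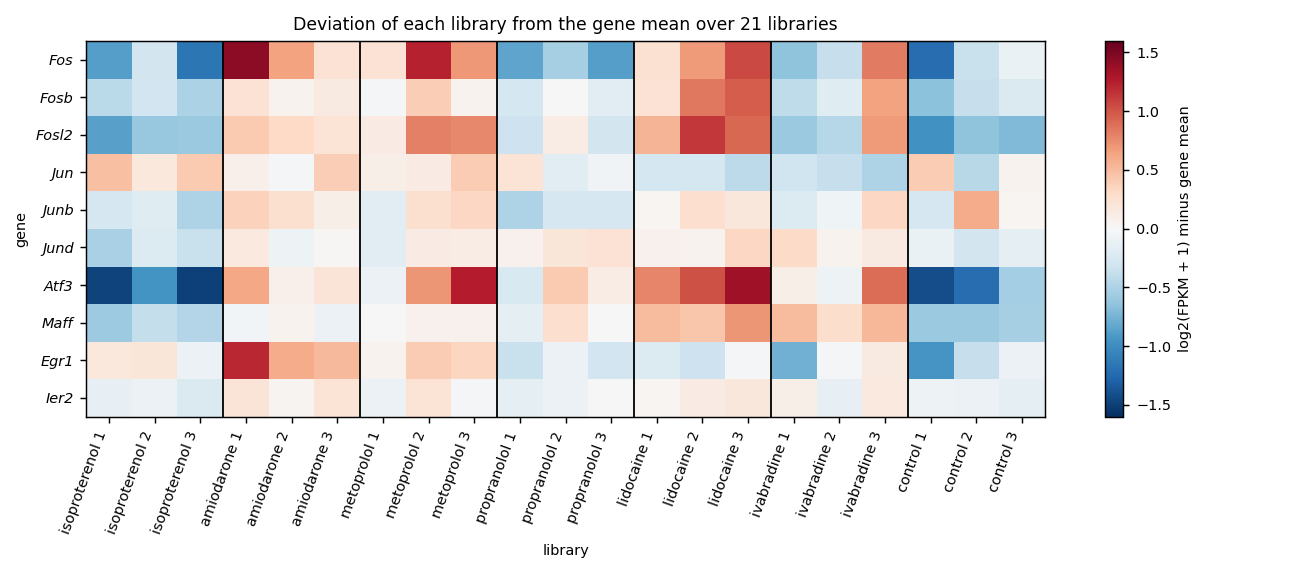
Each cell is log2(FPKM + 1) of a gene in 1 library minus the mean of that gene over 21 libraries; columns are libraries in their groups, red above and blue below the mean. Ivabradine library 3 stands with the lidocaine libraries in Fos, Fosb, Fosl2 and Atf3, and Fos runs from 6.95 to 17.4 FPKM among the amiodarone libraries.

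Genes outside the group were ranked by the correlation of their log2(FPKM + 1) with each member over the 21 libraries. The closest to Fosl2 were Irs2 (r = 0.952), Adamts1 (0.939) and Nr4a1 (0.923), for Fosb Plk3 (0.914), Csrnp1 (0.91) and Nr4a2 (0.897), and for Fos Pim1 (0.856), Nr4a1 (0.852) and Egr3 (0.844). Those links were also present within groups, with r of deviations of 0.701 to 0.915. Atf3 was followed by Arid5a (0.948), Rbm12 (0.937) and Adamts1 (0.919). For Maff the closest were Tmem100 (0.945), Slc7a1 (0.94) and Per1 (0.931), and their deviations within groups correlated less, at 0.367, 0.147 and 0.639. Jund was closest to Dnajb5 (0.903) and Zyx (0.902), Egr1 to Cyr61 (0.843), Ier2 to Ppp1r15a (0.796), Jun to Sesn1 (0.798) and Junb to Zfp36 (0.769). The r of deviations was lower for Jun with Sesn1 (0.425) and for Jund with Dnajb5 (0.627) and Zyx (0.65). It was 0.813 for Egr1, 0.783 for Ier2 and 0.763 for Junb with the genes named. For Atf3 it was 0.869, 0.64 and 0.686. The values share library and scaling, and no test was applied.

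Of 13 other bZIP genes tested of 15 listed, those called higher against control were 0 under isoproterenol, 1 under amiodarone, 1 under metoprolol, 1 under propranolol, 2 under lidocaine and 2 under ivabradine, and those called lower were 6, 4, 5, 4, 4 and 3, with list medians of -0.38, -0.32, -0.33, -0.23, -0.16 and -0.18 log2 (medians of all genes -0.09, -0.08, -0.08, -0.08, -0.10 and -0.08). Over all genes 6.98% to 10.6% were called higher and 19.1% to 26.6% lower against control, so more calls lower than higher is not particular to these genes. After rescaling 1, 1, 1, 1, 2 and 2 of the 13 were called higher and 3, 2, 3, 3, 3 and 2 lower. Mafk, another small Maf, rose as Maff did, with mean levels of 21.1 FPKM under lidocaine, 18.9 under ivabradine, 18.7 under metoprolol, 17.5 under propranolol and 16.2 under amiodarone, against 11.5 FPKM in the controls. Its differences were 0.82 ± 0.09 log2 under lidocaine (adjusted p = 1.2e-05) and 0.46 ± 0.09 under amiodarone (0.0024), with 0.17 ± 0.09 under isoproterenol (0.16, and 0.037 after rescaling). Ddit3, the CHOP gene of the endoplasmic reticulum stress response, fell under all 6 drugs, by 0.46 log2 under isoproterenol to 0.86 log2 under propranolol. Maf, a large Maf also used by macrophages, fell under every drug but amiodarone, by 0.53 to 0.68 log2, and of these calls the lidocaine one held without control library 2 and the others did not (0.062 for isoproterenol, 0.077 for metoprolol, 0.1 for propranolol and 0.074 for ivabradine). Atf4, the translation-controlled stress factor, fell under isoproterenol by 0.38 ± 0.07 log2 (0.00036), with differences of 0.01 to 0.05 log2 under the other drugs.

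Upstream of the group, 20 genes of MAP kinase, serum response factor and CREB signalling were tested. Those called higher numbered 1 under isoproterenol, 3 under amiodarone, 3 under metoprolol, 2 under propranolol, 5 under lidocaine and 3 under ivabradine, and those called lower 1, 2, 2, 3, 3 and 3, with list medians of 0.01, 0.04, 0.05, 0.03, 0.01 and -0.02 log2. The shares of all genes, 6.98% to 10.6% higher and 19.1% to 26.6% lower, were above the list's in the lower direction, and in the higher direction the list's lay on both sides of them. After rescaling 7, 6, 6, 7, 8 and 5 were called higher and 1, 0, 1, 1, 1 and 1 lower. Srf, the gene of serum response factor itself, stood at 63.9 FPKM under lidocaine, 61.0 under propranolol, 59.3 under ivabradine, 57.6 under metoprolol and 56.5 under amiodarone, against 40.3 FPKM in the controls. It rose by 0.65 ± 0.07 log2 under lidocaine (adjusted p = 6.1e-06) and by 0.48 ± 0.07 under amiodarone (0.00027). Its isoproterenol difference was 0.12 ± 0.07 (0.19; 0.031 after rescaling and 0.047 without control library 1). Creb1, the cAMP response factor, fell under all 6 drugs by 0.25 to 0.39 log2, the amiodarone call being lost after rescaling (0.061), without amiodarone library 2 (0.056) and without control library 1 (0.062). Without the 4 libraries the amiodarone and isoproterenol calls were lost (0.083 and 0.086). Rps6ka5, a kinase of histone H3 and CREB, was higher by 0.24 to 0.36 log2 under the 5 anti-arrhythmics, and without control library 2 its calls other than that under ivabradine were lost (adjusted p = 0.068 to 0.14). Mapk3, a MAP kinase gene, was lower by 0.19 to 0.23 log2 under the 5 anti-arrhythmics, and all 5 calls were lost after rescaling (adjusted p = 0.084 to 0.19).

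Of 16 tested of 19 other immediate early genes, 0 were called higher under isoproterenol, 5 under amiodarone, 5 under metoprolol, 3 under propranolol, 5 under lidocaine and 2 under ivabradine, and 4, 2, 4, 4, 5 and 5 were called lower, with list medians of -0.10, 0.11, 0.19, 0.07, 0.07 and -0.06 log2. Over all genes 6.98% to 10.6% were called higher and 19.1% to 26.6% lower, and the list's lower calls lay near those shares. After rescaling 1, 5, 6, 5, 7 and 2 were called higher and 3, 2, 2, 3, 5 and 3 lower. Csrnp1 was at 9.34 FPKM under lidocaine, 6.41 under ivabradine, 6.01 under metoprolol, 5.93 under amiodarone and 5.15 under propranolol, against 2.75 FPKM in the controls, and rose by 1.44 ± 0.19 log2 under lidocaine (adjusted p = 4.6e-05). Its propranolol call was lost without propranolol library 2 (0.054), and without the 4 libraries the propranolol and amiodarone calls were lost (0.091 and 0.057). Btg2, an antiproliferative early gene, rose by 1.00 ± 0.16 under metoprolol (0.00046), 0.92 ± 0.16 under amiodarone (0.00096) and 0.74 ± 0.16 under lidocaine (0.0023). Gadd45b, a growth arrest and damage gene, fell under all 6 drugs, from 0.90 ± 0.15 log2 under ivabradine to 1.33 ± 0.15 under metoprolol, and was at 3.64 FPKM under metoprolol and 10.7 FPKM in the controls. Zfp36l1, whose protein speeds decay of AU-rich RNAs, fell by 0.61 ± 0.09 under propranolol (0.00026), 0.48 ± 0.09 under lidocaine (0.00087) and 0.48 ± 0.09 under ivabradine (0.0013). Against the mean of the 5 anti-arrhythmics, isoproterenol had 10 of the 16 lower and 2 higher (13.3% of all genes lower and 9.51% higher).

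Nab2, an Egr1 corepressor that Egr1 itself induces, fell under all 6 drugs by 0.35 to 0.55 log2, also under amiodarone and metoprolol, where Egr1 rose (the propranolol call had an adjusted p of 0.051 without the 4 libraries). Nab1 was not called in any of them. Of 11 tested of 15 AP-1 target genes, limma called 0 higher against control under each of the 6 drugs, where 6.98% to 10.6% of all genes were higher, so that 0 of 11 is near that share. Those called lower were 6 under isoproterenol, 1 under amiodarone, 0 under metoprolol, 0 under propranolol, 1 under lidocaine and 1 under ivabradine, where 25.8% of all genes were lower under isoproterenol and 19.1% to 26.6% under the other drugs. After rescaling 2 were higher under propranolol (Ccnd1 and Hbegf) and 1 under lidocaine (Plaur), and 3 were lower under isoproterenol (Cd44, Ccl2 and Plaur) and 1 under lidocaine (Plau). Against the other 4 anti-arrhythmics, propranolol had 1 of the 11 higher, Hbegf, a growth factor of the EGF family (0.46 ± 0.09 log2, adjusted p = 0.023, named after its value was seen). The list medians were -0.70, -0.26, -0.31, -0.17, -0.25 and -0.24 log2 against control, in the order of drugs above. Under isoproterenol, Cd44, a hyaluronan receptor, fell by 0.95 ± 0.25 log2 (adjusted p = 0.007), Ccl2, a monocyte chemokine, by 0.85 ± 0.23 (0.01), Plaur, the urokinase receptor, by 0.70 ± 0.18 (0.0062) and Ccnd1, cyclin D1, by 0.24 ± 0.06 (0.0051). All 4 calls were lost without the 4 libraries (0.12, 0.078, 0.14 and 0.069), the Ccl2 call also without isoproterenol library 3 (0.063) or control library 2 (0.072), and the Ccnd1 call after rescaling (0.12).

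Cd44, Ccl2 and Plaur are also expressed by macrophages, whose 6 markers (none at 0 in any library) summed to 71.05 to 163 FPKM under isoproterenol, 157 to 230 under amiodarone, 120 to 377 under metoprolol, 144 to 190 under propranolol, 103 to 276 under lidocaine and 191 to 234 under ivabradine, against 197 to 561 FPKM in the controls. Of the 6, those called lower were 5, 1, 4, 4, 4 and 4 in the same order of drugs (19.1% to 26.6% of all genes were lower). The 8 neutrophil markers summed to 66.3 to 76.0 FPKM under amiodarone, where Fos and Egr1 were highest, and to 5.97 to 8.86 FPKM under isoproterenol, against 18.4 to 131 FPKM in the controls, with 0 to 3 of the 8 at 0 in a library. The 5 markers of epicardium and mesothelium summed to 10.96 to 16.9 FPKM in the controls. They summed to 29.5 to 37.0 FPKM under amiodarone, 24.3 to 29.6 under lidocaine and 16.9 to 40.7 under ivabradine. Of the 5, those called higher there were 3, 3 and 4 (8.47%, 10.6% and 7.91% of all genes were higher). Under metoprolol they summed to 20.45 to 29.9 FPKM, under propranolol 12.6 to 33.4 and under isoproterenol 15.95 to 25.1, with 0 called in each. The part of these cell types in the levels of the 10 genes was not tested.

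Heat shock genes, which respond to heat and handling, were tested as a list of 7. Of these, 1 was called higher under amiodarone, metoprolol and lidocaine and 0 under isoproterenol, propranolol and ivabradine, and 2 were lower under isoproterenol and 1 under amiodarone. Over all genes 8.47%, 9.48% and 10.6% were higher under amiodarone, metoprolol and lidocaine, and 25.8% and 20.6% lower under isoproterenol and amiodarone. In so short a list these counts lie near those shares. Hsp90aa1 fell by 0.65 ± 0.09 log2 under isoproterenol (adjusted p = 9.5e-05), with 39.0 FPKM against 61.9 FPKM in the controls. Hspa1a, a low gene whose reads may be shared with its near-identical neighbour Hspa1b, was higher by 0.43 ± 0.10 log2 under lidocaine (0.0031), 0.32 ± 0.10 under amiodarone (0.024) and 0.31 ± 0.10 under metoprolol (0.025), the last 2 lost without control library 3 (0.068 and 0.072), among other libraries. Dnajb1 fell by 0.26 ± 0.07 under isoproterenol (0.0096) and 0.23 ± 0.07 under amiodarone (0.021), and both calls were lost after rescaling (0.11 and 0.12).

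**Figure D4:**
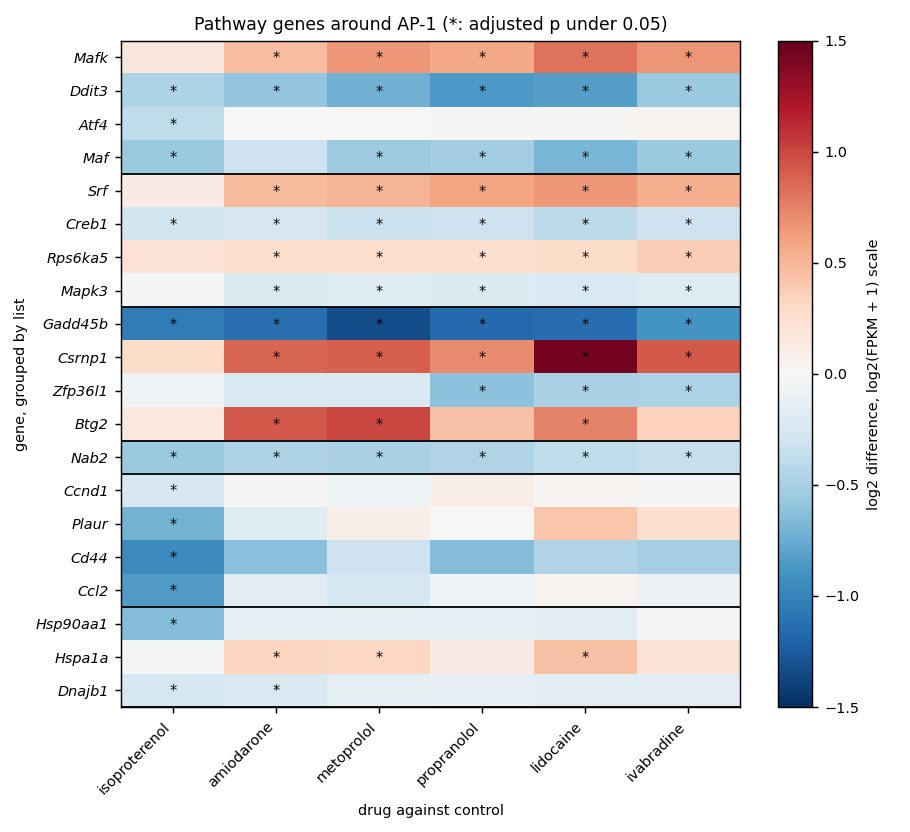
Log2 differences against control of 20 genes around AP-1, grouped by list, on the log2(FPKM + 1) scale; red is higher and blue lower under the drug, and asterisks mark an adjusted p under 0.05. Mafk, Srf and Csrnp1 were called higher under the 5 anti-arrhythmics and not under isoproterenol, and Ddit3, Creb1, Gadd45b and Nab2 lower under all 6 drugs.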

How the data were processed

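RNA of 21 heart apex libraries (7 groups of 3) was sequenced on a BGISEQ-500, per the labels' protocols, in which the choice between oligo dT selection and rRNA depletion is left unstated. The authors deposited FPKM values for 18762 genes, and the submitters' processing notes name HISAT, Bowtie2 2.2.5 and the build mm9. The counter, annotation and filters are not given in the sources used here. No value column was left unmapped (0).

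Values were analysed as log2(FPKM + 1), which understates the change of low genes. The 12433 genes that reached 1 FPKM in 3 or more libraries were fitted with limma 3.58.1 in R 4.3.3, 1 mean per group over all 21 libraries, 14 residual degrees of freedom, empirical Bayes with a mean-variance trend, two-sided tests and Benjamini-Hochberg adjustment within each comparison, with 0.05 as threshold. The code was tested on simulated data.

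The members, gene lists and tests were chosen with earlier results of these data known. The text names all 10 members and up to 4 called genes of each pathway list by smallest adjusted p. It also names the 3 most similar genes of some members and fewer for the others. A gene of the MAP kinase list is not reported here. Metoprolol against propranolol was added after seeing the data. The alternatives tried were median-of-ratios rescaling, a pseudocount of 0.1, the filter raised to 5 FPKM or dropped, robust moderation, a fit with no variance trend, a block for the title number, a Y-linked covariate, leaving out 4 libraries with RNA of other tissues, fitting the compared groups alone, and leaving out each library in turn. Promoter sequences came from RefSeq (GRCm38.p6), another build than mm9. No promoter entry was found for Egr1 or Ier2.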

Additional observations from a re-analysis of the deposited data

How the results depend on the processing

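The scale matters for counts over all genes. Of the genes called, the percent that were higher was 24.5% under isoproterenol, 29.2% under amiodarone, 30.2% under metoprolol, 26.1% under propranolol, 28.4% under lidocaine and 29.3% under ivabradine against control. After median-of-ratios rescaling it was 56.0%, 61.4%, 59.6%, 58.3%, 56.4% and 57.5%, and 89.5% in place of 77.8% for lidocaine against the other 4 drugs. Of the 10 genes, rescaling called 2 (Jun and Egr1) for isoproterenol against control. Over all genes, residuals of libraries with the same title number correlated at r -0.54 to 0.29 (63 pairs, median -0.027, 12 pairs over 0.1). This describes all genes together and does not show whether the members vary with the title number. With the number as a replicate block, Junb was called lower under isoproterenol (adjusted p = 0.043) and propranolol (0.042), and Jun lower under ivabradine (0.045). With these lower calls included, the count called against control was 1 under isoproterenol, 7 under amiodarone, 6 under metoprolol, 5 under propranolol, 6 under lidocaine and 5 under ivabradine. Without the 4 libraries it was 1 under isoproterenol, 3 under amiodarone (Atf3, Egr1 and Maff), 5 under metoprolol, 2 under propranolol, 6 under lidocaine and 3 under ivabradine, and 4 for isoproterenol against the 5 anti-arrhythmics, which was 5 with the Y-linked covariate. Amiodarone against the other 4 gave 0 with no filter, no trend, robust moderation or without the 4 libraries, and lidocaine against the other 4 gave 0 with no filter, without the 4 libraries or with the compared groups alone. The F test of the 5 groups gave 2 with a filter at 5 FPKM, 2 with the Y-linked covariate, 2 with these groups alone and 0 without the 4 libraries.

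Leaving out 1 library at a time, the counts against control ran from 0 to 2 for isoproterenol, 4 to 6 for amiodarone, 3 to 6 for metoprolol, 1 to 4 for propranolol, 4 to 7 for lidocaine and 3 to 4 for ivabradine. They ran from 4 to 9 for isoproterenol against the 5 anti-arrhythmics, 8 to 10 for the F test of 7 groups, 1 to 5 for that of 5 groups, 0 to 1 for amiodarone and 0 to 3 for lidocaine against the other 4, and stayed at 0 for the other 3 drugs and for metoprolol against propranolol.

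No called member changed sign. Small uncalled log2 differences did: after rescaling Ier2 under isoproterenol (0.058), Jun under propranolol (0.085) and Maff between the β-blockers (-0.0056); without the 4 libraries Fos (0.20) and Atf3 (0.098) under isoproterenol, Fos under propranolol (0.084), Junb under metoprolol (-0.025) and lidocaine (-0.00070) and Maff between the β-blockers (-0.091); with the Y-linked covariate Egr1 for isoproterenol against the 5 drugs (-0.13). Leaving out single libraries, log2 differences against control crossed 0 as follows. Under isoproterenol Fos ran from -0.54 to 0.011, Fosb from -0.11 to 0.10, Fosl2 from -0.019 to 0.17 and Atf3 from -0.43 to 0.0082. Under propranolol Fos ran from -0.52 to 0.036, Jun from -0.23 to 0.19, Egr1 from -0.018 to 0.40 and Ier2 from -0.021 to 0.060. Jun ran from -0.073 to 0.35 under amiodarone and -0.021 to 0.40 under metoprolol. Junb ran from -0.069 to 0.36 under amiodarone, -0.17 to 0.25 under metoprolol, -0.15 to 0.28 under lidocaine and -0.30 to 0.13 under ivabradine. Egr1 for isoproterenol against the 5 drugs ran from -0.038 to 0.11, and Maff between the β-blockers from -0.091 to 0.12. Absolute depth is unknown, and 3 libraries a group limit what could be detected.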
